A study of Mus musculus with 6 samples.

Results

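Ccn1, Ccn2, Ankrd1, Axl, Crim1, Gadd45a, F3, Myof and Nt5e are 9 genes widely used as targets of the coactivator YAP. They were taken by symbol from the 21887 mouse protein-coding genes on chromosomes 1 to 19, X and Y of the RefSeq annotation (GRCm38.p6), and all 9 were found. Each was examined from 50 kb before its lower to 50 kb past its upper coordinate, and these windows hold 209 of the 185437 ChIP-seq summits in 6 deposited lists. A summit is the single base at which the authors' peak caller placed the top of a peak.

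The chromatin came from epithelium of the gastric corpus, the acid-secreting body of the stomach, isolated with EDTA and fixed and frozen without culture. Tumor mice carried CluCreERT2;R26rtTA;HA-Yap+, in which Cre recombinase is driven from the Clu locus and activated by tamoxifen, and an HA-tagged Yap depends on a doxycycline-responsive transactivator at R26. Normal mice were WT. The labels give every sample the same protocol, 14 days of doxycycline food after 5 daily doses of 2 mg tamoxifen, and they give no age. YAP was profiled in 2 tumor libraries and 2 normal libraries, and H3K27ac in 1 tumor library and 1 normal library. The cells were not sorted, so the share of cells carrying the tumor alleles and the signal per cell cannot be told apart.

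YAP is the coactivator that the Hippo kinases hold in the cytoplasm. In the nucleus it does not bind DNA by itself but is carried by TEAD factors, which recognise the letters GGAATG and their reverse complement CATTCC, often beside AP-1 factors. H3K27ac, acetylation of histone H3 at lysine 27, marks active promoters and enhancers. The 9 genes encode secreted matrix proteins (Ccn1, Ccn2), nuclear proteins (Ankrd1, Gadd45a) and proteins of the cell surface or membrane (Axl, Crim1, F3, Myof, Nt5e).

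The lists differed widely in length. YAP tumor 1 and tumor 2 held 38268 and 53904 summits, against 1654 and 2141 in YAP normal 1 and normal 2, and H3K27ac held 66896 summits in tumor and 22574 in normal. YAP normal 1 stood apart, with 1.09% of its summits within 1 kb of a gene end, against 32.3% in normal 2 and 30.3% and 24.3% in tumor 1 and tumor 2. The words in the peak names go against the labels of 2 libraries: the library labelled tumor 1 carries the word cre, as normal 1 and the normal H3K27ac library do, and the library labelled normal 2 carries the word Clu_Yap, as tumor 2 and the tumor H3K27ac library do. Groups were taken from the labels, and results under the words are given where they are affected. An H3K27ac summit lay within 1 kb of an end of 8 of 12 corpus epithelial marker genes in tumor and 10 of 12 in normal. The acid pump genes Atp4a and Atp4b, and Pgc, Tff1, Epcam, Cdh1 and Krt8, had one in both. Cblif, Muc5ac and Gkn1 had one in normal alone, Muc6 in tumor alone and Tff2 in neither. Of all protein-coding genes, 46.4% had one in both. Among 8 markers of other cell kinds, such a summit lay at 4 in tumor (Col1a1, Col1a2, Des, Myh11) and 3 in normal (Ptprc, Col1a1, Col1a2). None of these was endothelial (Pecam1, Cdh5) or Cd3e. The part of these other cells in the results below was not tested.

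The start sites of 5 of the genes carry the contrasts that follow, and are printed 5′ to 3′ from RefSeq (GRCm38.p6), from 250 bases before the start to 50 after it. In the Ccn1, Ankrd1 and Axl sequences the capitals are TEAD letters (GGAATG or CATTCC), and in the F3 sequence they are AP-1 letters (TGANTCA). In the Gadd45a sequence the capitals are the 37 bases from the tumor 2 summit to the tumor 1 summit of the best-ranked YAP site at any of the 9 genes.
Ccn1, chr3:145649936-145650235, minus strand: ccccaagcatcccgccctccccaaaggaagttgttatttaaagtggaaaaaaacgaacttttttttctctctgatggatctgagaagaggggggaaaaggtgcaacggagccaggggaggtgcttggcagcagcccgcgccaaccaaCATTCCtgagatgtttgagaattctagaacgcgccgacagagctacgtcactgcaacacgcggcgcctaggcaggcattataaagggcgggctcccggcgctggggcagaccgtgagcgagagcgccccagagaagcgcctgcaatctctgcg
Ankrd1, chr19:36119795-36120094, minus strand: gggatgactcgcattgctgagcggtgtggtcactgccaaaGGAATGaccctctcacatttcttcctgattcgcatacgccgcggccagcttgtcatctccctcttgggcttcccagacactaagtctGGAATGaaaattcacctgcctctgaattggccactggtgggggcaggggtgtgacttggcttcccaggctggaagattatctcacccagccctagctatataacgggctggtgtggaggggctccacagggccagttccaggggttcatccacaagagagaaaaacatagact
Axl, chr7:25788684-25788983, minus strand: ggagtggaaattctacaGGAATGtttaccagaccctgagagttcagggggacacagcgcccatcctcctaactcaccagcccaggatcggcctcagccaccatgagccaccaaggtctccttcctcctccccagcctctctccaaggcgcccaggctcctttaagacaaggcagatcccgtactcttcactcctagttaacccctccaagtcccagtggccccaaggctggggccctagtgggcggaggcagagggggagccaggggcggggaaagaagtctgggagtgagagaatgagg
F3, chr3:121723287-121723586, plus strand: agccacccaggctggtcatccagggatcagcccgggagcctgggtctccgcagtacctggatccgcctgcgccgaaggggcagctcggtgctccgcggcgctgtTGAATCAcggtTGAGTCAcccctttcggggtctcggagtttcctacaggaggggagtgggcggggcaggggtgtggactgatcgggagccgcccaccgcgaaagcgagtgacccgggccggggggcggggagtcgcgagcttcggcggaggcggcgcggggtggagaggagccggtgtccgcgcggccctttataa
Gadd45a, chr6:67037358-67037657, minus strand: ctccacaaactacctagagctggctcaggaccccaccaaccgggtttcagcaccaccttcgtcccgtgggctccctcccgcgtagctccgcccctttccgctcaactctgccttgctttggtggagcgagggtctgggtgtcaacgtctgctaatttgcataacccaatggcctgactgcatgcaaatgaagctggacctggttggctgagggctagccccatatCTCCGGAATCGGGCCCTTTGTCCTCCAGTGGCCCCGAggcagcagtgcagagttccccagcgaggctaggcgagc

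All 9 genes had YAP summits in both libraries labelled tumor, and none had a summit in either library labelled normal. Together the windows held 51 summits in tumor 1 and 76 in tumor 2, against 0 in normal 1 and 0 in normal 2. At every gene the lower tumor count was above the higher normal count, as it was at 79.2% of all protein-coding genes. A window without any normal YAP summit was likewise the rule, at 81.8% of all genes. The nearest summit of a normal YAP library lay 180647 bp from a member gene, at Myof in normal 2. The exact two-sided permutation test over the 4 libraries gave p = 0.333 at each of the 9 genes, the smallest p that 2 libraries against 2 allow. With 0 in both normal libraries, leaving out normal 1 could not change the normal count.

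**Figure D1:**
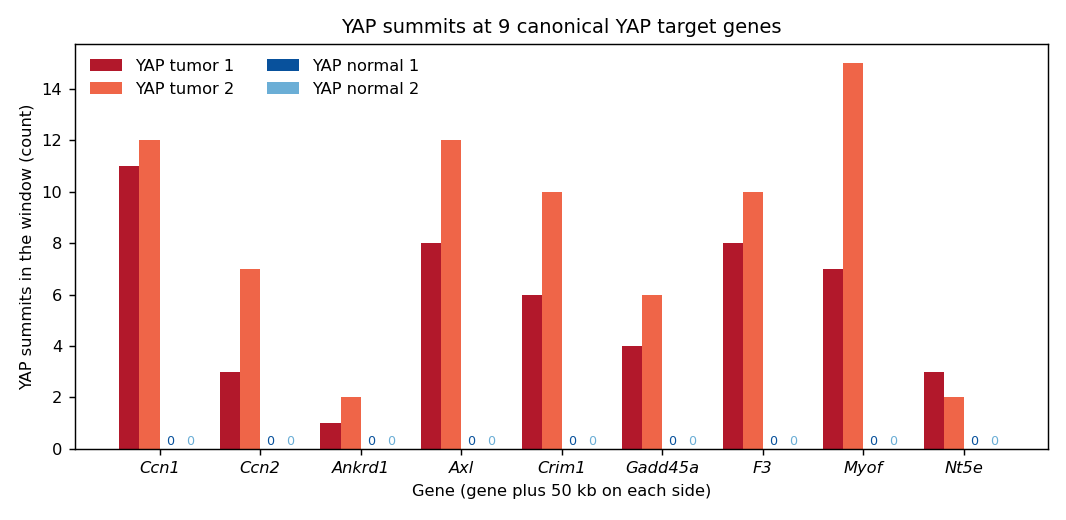
YAP summits in the window of each gene (count, gene plus 50 kb on each side) in the 4 YAP libraries, tumor 1 and tumor 2 to the left of normal 1 and normal 2. Tumor counts run from 1 at Ankrd1 in tumor 1 to 15 at Myof in tumor 2, and the normal libraries are at 0 throughout.

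List length and the grouping of the libraries both bear on that contrast. With each tumor list cut to its 1654 best-scored summits, the length of the shorter normal list, 1 summit per tumor library was left at the 9 genes, both at the Gadd45a start, and 12.9% of all genes kept a site shared by the tumor libraries. Grouping by the words in the peak names pairs tumor 2 with normal 2 (Clu_Yap) and tumor 1 with normal 1 (cre). With 0 summits in both normal libraries, none of the 9 genes could then have higher counts in both Clu_Yap libraries. That outcome, and the exact permutation p = 1.0 at each gene, were therefore fixed in advance. The log2 ratios, given below as 1.29 to 3.64 for the labelled groups, here set tumor 2 against tumor 1 alone. They became −0.21 at Nt5e, 0.06 at Ccn1, 0.14 at F3, 0.24 at Gadd45a, 0.27 at Axl, 0.29 at Ankrd1, 0.33 at Crim1 and 0.50 at Ccn2 and Myof. Every YAP contrast between tumor and normal below therefore rests on the labels.

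A YAP site is here a tumor 1 summit matched one to one with the nearest tumor 2 summit within 200 bp, and is given at their midpoint. The 9 genes had 40 such sites and each had at least 1, as did 79.2% of all genes. The median was 3.0 sites per gene, equal to the median of all genes, and 2.86 sites per 100 kb of window, against 2.17 over all genes. The share of all genes that reached a gene's density ran from 4.13% at Ccn1 to 69.7% at Ankrd1. Sites were ranked by the poorer of their tumor 1 and tumor 2 ranks. The share of all genes with a site as good as a gene's best ran from 11.9% at Gadd45a to 67.0% at Ankrd1. Of the tumor 1 summits at these genes 78.4% had a tumor 2 partner (40 of 51, Wilson 95% interval 65.4 to 87.5%), and of the tumor 2 summits 52.6% had a tumor 1 partner (40 of 76, 41.6 to 63.5%). Over all summits these shares were 77.1% and 54.7%. No gene had a site shared by the normal libraries, which 2.05% of all genes had. Intervals cover counting error only.

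**Figure D2:**
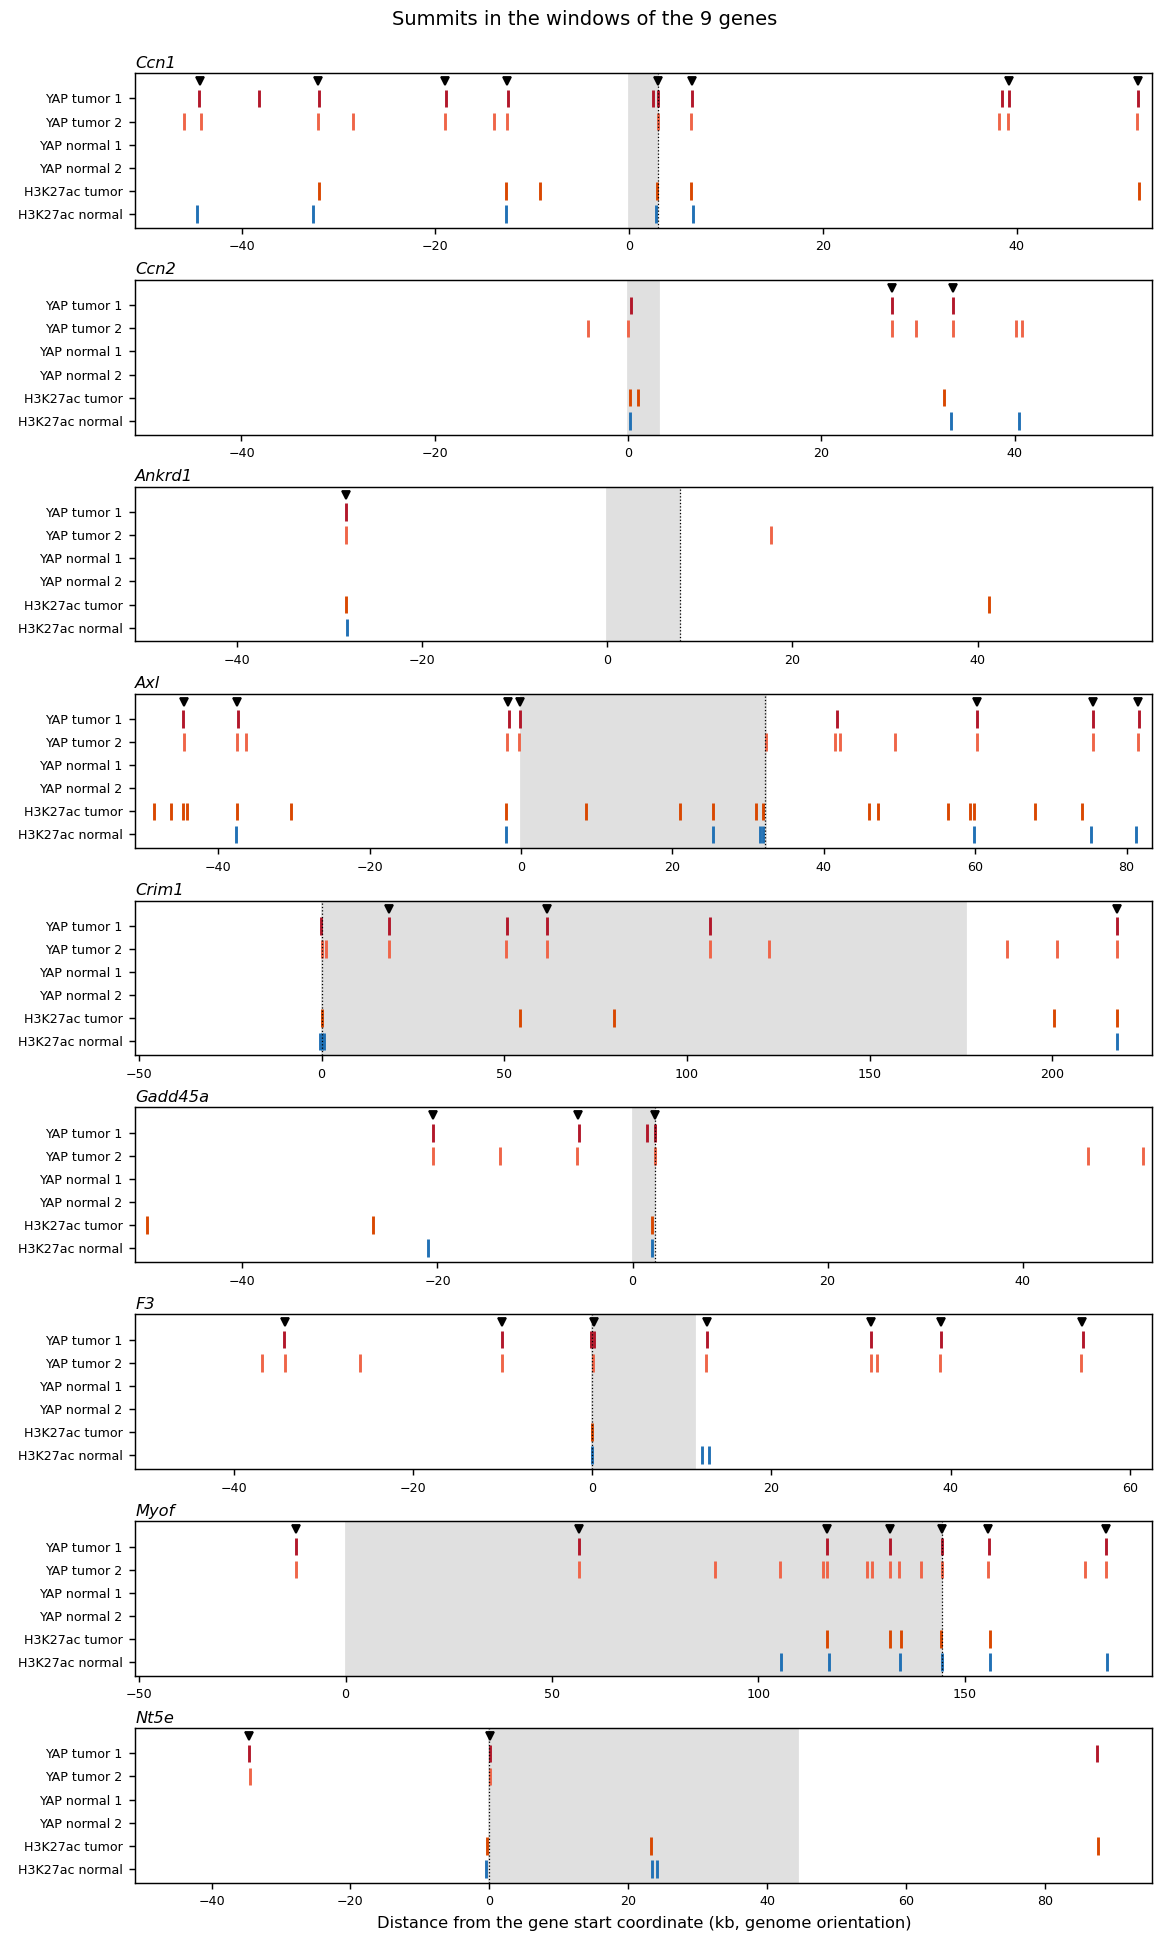
Positions of the summits at each of the 9 genes, in kb from the gene's lower coordinate, with YAP tumor above YAP normal and H3K27ac tumor above H3K27ac normal, the gene as a grey band, its transcription start as a dotted line and the sites of both tumor libraries as triangles. The YAP normal rows hold no summit, and the Axl window holds 19 tumor H3K27ac summits.

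Ccn1 (chr3:145646971-145649985, minus strand), which encodes a secreted matrix protein that binds integrins, had the most YAP sites of the 9 at this distance. Its window held 11 summits in tumor 1 and 12 in tumor 2, against 0 in each normal library, a log2 ratio of 3.64. This ratio, as for the other genes, is of geometric means of the count plus 1, so it depends on the added 1 and is no bound. Its 8 sites came to 7.77 per 100 kb, a density that 4.13% of all genes reached. A site ranked as well as its best was in the windows of 62.7% of all genes. The number of sites rests on the matching distance: 2 of the 8 remained when summits had to lie within 100 bp, and 9 were found with 500 bp. The best-ranked site, at 145649935, lay inside the gene 50 bp from its start, with its summits 19 bp apart and at 33.2% and 18.1% of the ranked tumor 1 and tumor 2 lists. The CATTCC printed in capitals above sits 100 bp upstream of the start, 159 bp from the tumor 1 summit and 140 bp from the tumor 2 summit. Another site lay 3442 bp upstream and 2 more lay 36154 and 49463 bp upstream. On the other side, a site at 145634383 lay 12588 bp past the gene's far end with H3K27ac in both tissues. The 2 farthest sites on that side were nearest to Znhit6.

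Ccn2 (chr10:24595442-24598683), which encodes connective tissue growth factor, a matrix protein of the same family, had 3 YAP summits in tumor 1 and 7 in tumor 2, against 0 in each normal library (log2 ratio 2.50). Both tumor libraries had a summit within 1 kb of the gene's start coordinate. The tumor 1 summit, at 24595787, lay 345 bp from it and was low-ranked (33610 of 38268). The tumor 2 summit, at 24595431, lay 11 bp from it (rank 19677 of 53904). These lay 356 bp apart, so they were not joined into a site at 200 bp. Its 2 sites lay beyond the upper end of the gene, 24031 and 30352 bp away, on the side of Enpp1, an ectonucleotidase gene. The nearer of the 2, at 24622714, had its summits 8 bp apart and ranked 7617 in tumor 1 and 7577 in tumor 2. It had no H3K27ac summit within 1 kb, the nearest being 5367 bp away in tumor and 6145 bp away in normal. The farther one had H3K27ac within 1 kb in both.

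Ankrd1 (chr19:36111965-36119844, minus strand) encodes an ankyrin repeat protein best known in heart muscle, where it acts with transcription factors. It had the fewest YAP summits of the 9, 1 in tumor 1 and 2 in tumor 2, against 0 in each normal library (log2 ratio 1.29). None of the 6 lists had a summit within 1 kb of its start. Its printed start sequence nevertheless holds GGAATG at 207 and 120 bp upstream. The nearest summit to these letters was a tumor 2 summit at 36129629, 9785 bp upstream of the start and ranked 25235 of 53904, with no tumor 1 partner. The 1 site in the window, at 36083740, lay 28225 bp past the far end of the gene and 24 bp from the start of Rpp30, which encodes a subunit of ribonuclease P.

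Gadd45a (chr6:67035096-67037407, minus strand), a gene induced by DNA damage and other stress, held the best-ranked site of the 9 genes. Its window had 4 YAP summits in tumor 1 and 6 in tumor 2, against 0 in each normal library (log2 ratio 2.56). The site at 67037414 lay 7 bp upstream of the start. Its summits were 36 bp apart and ranked 1455 in tumor 1 and 1511 in tumor 2, the top 3.80% and 2.80% of those lists. Even so, 11.9% of all genes had a site ranked as well in their windows. No TEAD or AP-1 letters of the forms searched were in the printed 300 bases. The other 2 sites lay 7908 and 22769 bp downstream of the start, the farther one inside Gng12.

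Axl (chr7:25756500-25788924, minus strand) encodes a receptor tyrosine kinase for the ligand Gas6. It had 8 YAP summits in tumor 1 and 12 in tumor 2, against 0 in each normal library (log2 ratio 3.44), and 7 sites. None of the 7 lay inside the gene. Near its own start a summit was found in tumor 2 alone, at 25788874, 141 bp upstream and ranked 41521 of 53904. It was 89 bp from the GGAATG printed in capitals above, 230 bp upstream of the start. The best-ranked sites in the window lay at the starts of neighbours: 226 bp from that of Cyp2s1, a cytochrome P450 gene (ranks 3860 and 4132 in tumor 1 and tumor 2), 19 bp from that of Ccdc97, and 16 bp from that of Hnrnpul1, an RNA-binding protein gene. The site within 1 kb of an end of Axl lay 206 bp past its far end and 26 bp from the upper coordinate of Hnrnpul1. Hnrnpul1 is on the minus strand, so that coordinate is its 5′ end, and its annotated start was 1535 bp from the site.

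Crim1 (chr17:78200233-78376592, plus strand), which encodes a membrane protein with cysteine-rich repeats that binds bone morphogenetic proteins, had 6 YAP summits in tumor 1 and 10 in tumor 2, against 0 in each normal library (log2 ratio 3.13). At its start the tumor 1 summit lay 285 bp upstream (rank 7566) and the tumor 2 summit 17 bp upstream (rank 5338), 268 bp apart and so not joined. The gene had 3 sites at 200 bp and 6 at 500 bp. Its start sequence holds 1 GGAATG, 77 bp upstream, which lies 208 bp from the tumor 1 summit and 60 bp from the tumor 2 summit. Its best-ranked site, at 78417947, lay 205 bp from the start of Fez2. The 2 others lay within the gene, 18430 and 61669 bp from the start, both without H3K27ac in either tissue.

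F3 (chr3:121723537-121735052, plus strand) encodes tissue factor, the membrane protein that starts blood coagulation. It had 8 YAP summits in tumor 1 and 10 in tumor 2, against 0 in each normal library (log2 ratio 3.31), and 7 sites, or 6.28 per 100 kb, which 9.48% of all genes reached. The best-ranked, at 121713469, lay 10068 bp upstream, with summits 6 bp apart (ranks 5563 and 4913 in tumor 1 and tumor 2) and no H3K27ac summit nearer than 10051 bp in tumor and 10078 bp in normal. A site at 121723704, 167 bp inside the gene, had H3K27ac in both. The printed sequence holds TGAATCA and TGAGTCA 143 and 132 bp upstream, 10 and 21 bp from a low-ranked tumor 1 summit (rank 32279) and 252 and 241 bp from the nearest tumor 2 summit. The site at 121736312, 1260 bp past the far end, had an H3K27ac summit 244 bp away in normal and none within 1 kb in tumor.

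Myof (chr19:37899036-38043577, minus strand), which encodes a ferlin that takes part in membrane repair and fusion, had 7 YAP summits in tumor 1 and 15 in tumor 2, against 0 in each normal library (log2 ratio 3.50). Of its 7 sites, 4 lay inside the gene. The one at 38043526 was 51 bp from the start and had its summits 17 bp apart, at 59.1% and 30.2% of the tumor 1 and tumor 2 lists. A site 27811 bp into the gene ranked higher (4493 and 3586), with H3K27ac in both tissues. The best-ranked site in the window, at 38054783 (ranks 2107 and 1949), lay 11206 bp upstream of Myof and 201 bp from the start of Cep55, a cytokinesis gene.

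Nt5e (chr9:88327609-88372089, plus strand) encodes CD73, the surface enzyme that converts AMP to adenosine. It had 3 YAP summits in tumor 1 and 2 in tumor 2, against 0 in each normal library (log2 ratio 1.79). Its best-ranked site, at 88327725, lay 116 bp inside the gene (ranks 12922 and 5149 in tumor 1 and tumor 2), with H3K27ac in both tissues. The other site lay 34555 bp upstream and had no H3K27ac nearby.

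At the start sites, only the matched sites of both tumor libraries can be set beside all genes. Within 1 kb of the start, tumor 1 had a summit at 7 of the 9 genes and tumor 2 at 8, against 0 and 0 in normal 1 and normal 2. The share of all genes with such a summit was not counted for single libraries, and the normal YAP lists were far shorter. The 7 include Ccn2 and Crim1, whose tumor 1 and tumor 2 summits lay 356 and 268 bp apart and were not joined. A site of both tumor libraries lay within 1 kb of the start of 5 of the 8 genes with an annotated start sequence (Ccn1, Gadd45a, F3, Myof and Nt5e), against 48.7% of all genes with one. Counting either end of the gene, it was 6 of 9 genes, with Axl added by the site past its far end, against 46.5% of all genes. Of all 40 sites, 20 had another gene as their nearest, 7 lay within 1 kb of that gene's end, and 28 lay more than 1 kb from every gene end. The other 12 lay within 1 kb of one, and over all sites 32.5% did, so this count is near the background. The TEAD letters were in the start sequences of Ccn1, Ankrd1, Axl and Crim1 among the 8, and in 14.7% of the 32851 start sequences of the same length. The AP-1 letters were in that of F3 alone among the 8, and in 7.81% of all. Both strands were searched and no match overlapped another.

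**Figure D3:**
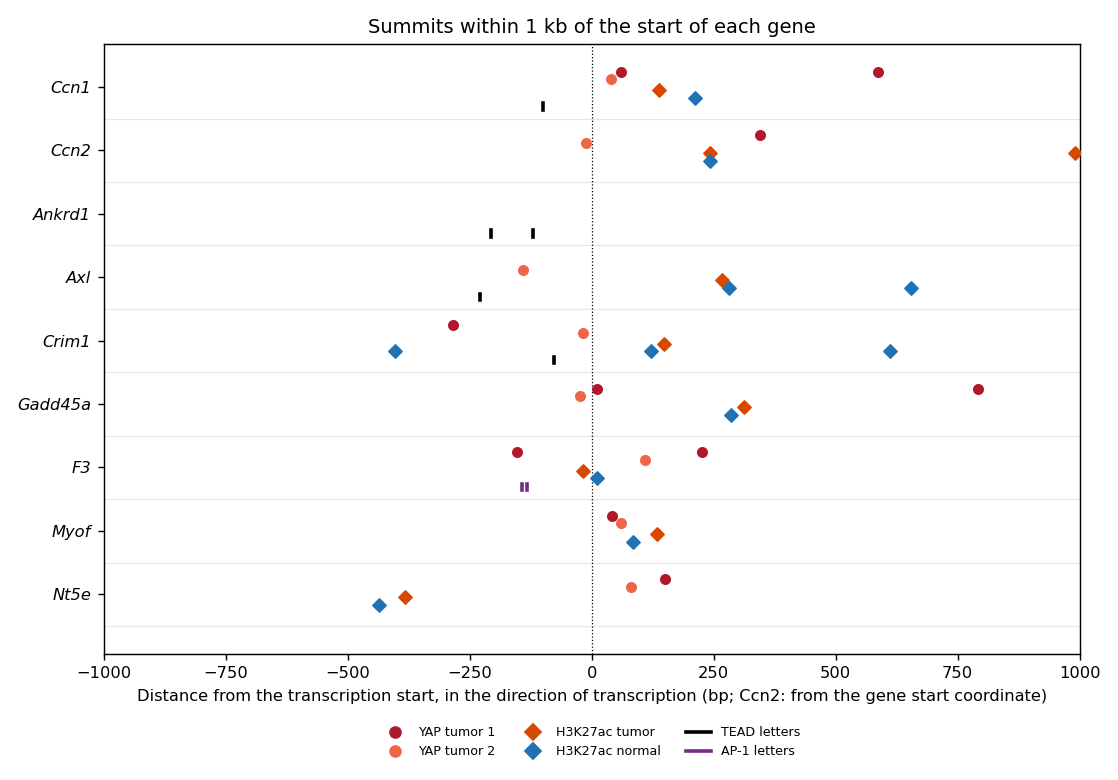
Summits within 1 kb of the start of each gene, in bp from the start in the direction of transcription (Ccn2: from its start coordinate), with YAP tumor 1 and tumor 2 as circles, H3K27ac tumor and normal as diamonds, and TEAD and AP-1 letters as ticks. The normal YAP libraries have no summit here, Ankrd1 has none in any list, and Axl has YAP in tumor 2 alone.

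H3K27ac lay at the same starts in tumor and in normal. It had a summit within 1 kb of the start in both tissues at 8 of the 9 genes, all but Ankrd1, against 46.4% of all genes when either end of the gene is counted. The closest tumor and normal summits there were 0 bp apart at Ccn2, 15 bp at Axl and 27 bp at Crim1, Gadd45a and F3. They were 49 bp apart at Myof, 52 bp at Nt5e and 74 bp at Ccn1. Further summits lay within 1 kb of the start in tumor at Ccn2 and in normal at Axl and Crim1. Of the 40 YAP sites, 19 had a tumor H3K27ac summit within 1 kb (47.5%, Wilson 95% interval 32.9 to 62.5%) and 22 a normal one (55.0%, 39.8 to 69.3%). The shares over all 29492 YAP sites were 52.0% for tumor and 47.4% for normal, both inside these intervals. H3K27ac of both tissues was near 16 sites, of tumor alone near 3, of normal alone near 6, and of neither near 15 (37.5%, 24.2 to 53.0%), against 41.2% without either over all sites. The 3 with tumor H3K27ac alone were 49463 bp upstream of Ccn1, in Ccdc97 in the Axl window, and 12685 bp into Myof. The best-ranked site of 7 genes had both, and those of Ccn2 and F3 had neither. The share of all genes whose best-ranked site had both was not counted. The best-ranked sites of Ankrd1, Axl, Crim1 and Myof lay 51 to 226 bp from an end of a neighbouring gene.

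**Figure D4:**
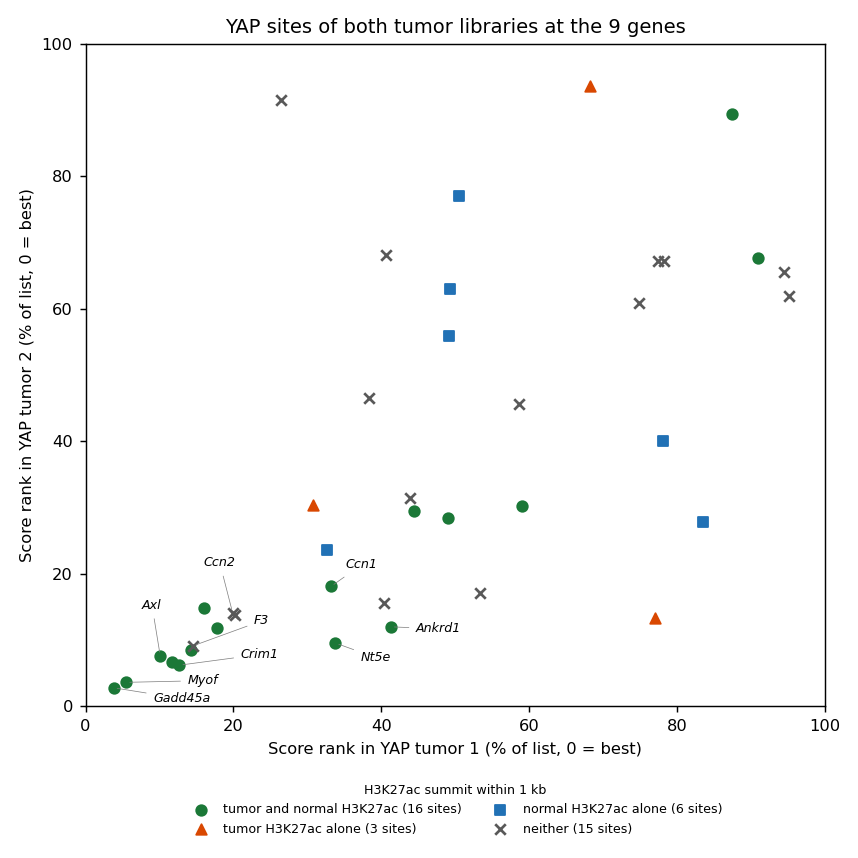
Score rank of the 40 YAP sites in tumor 1 (x axis) and tumor 2 (y axis), each as a percent of that list with 0 the best, by the H3K27ac summits within 1 kb. The best-ranked site of each gene is named, and Gadd45a and Myof lie lowest at 3.80% and 5.51% in tumor 1.

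Whether H3K27ac summits were more or fewer in tumor depended on list length, the tumor list being the longer one. With the tumor list cut to the 22574 best-scored summits, the length of the normal list, the 9 windows held 23 summits in tumor and 35 in normal. Fewer were counted in tumor at 8 genes (36.9% of all genes) and more at 1, Ankrd1 (25.6% of all genes). The shares of all genes, here and below, include any window without H3K27ac summits, which can be neither. Each of the 9 windows had at least 1 summit in normal, so these shares are not like for like. With full lists there were 47 in tumor and 35 in normal. Then 5 genes had more in tumor (81.3% of all genes), 2 had fewer, F3 and Myof (5.66% of all genes), and Ccn2 and Nt5e had equal numbers. With 1 library in each group there is no replicate check and no test.

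A ratio of count plus 1 of at least 2 at equal length was met by none of the 9 genes, against 12.8% of all genes. The ratio was at most 1/2 at F3 and Myof, against 7.91% of all genes. F3 had 1 summit in tumor at either length and 3 in normal. Both normal summits without a tumor summit within 1 kb there lay just past the far end of the gene, 750 and 1504 bp from it. Myof had 2 in tumor at equal length, 5 with the full list, and 6 in normal. Axl, with 7 at equal length, 19 with the full list and 8 in normal, was the gene whose count moved most with the length. Ccn1 had 4, 6 and 5 on the same scale, Crim1 2, 5 and 4, Gadd45a 1, 3 and 2, Ankrd1 2, 2 and 1, and Ccn2 and Nt5e each 2, 3 and 3.

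**Figure D5:**
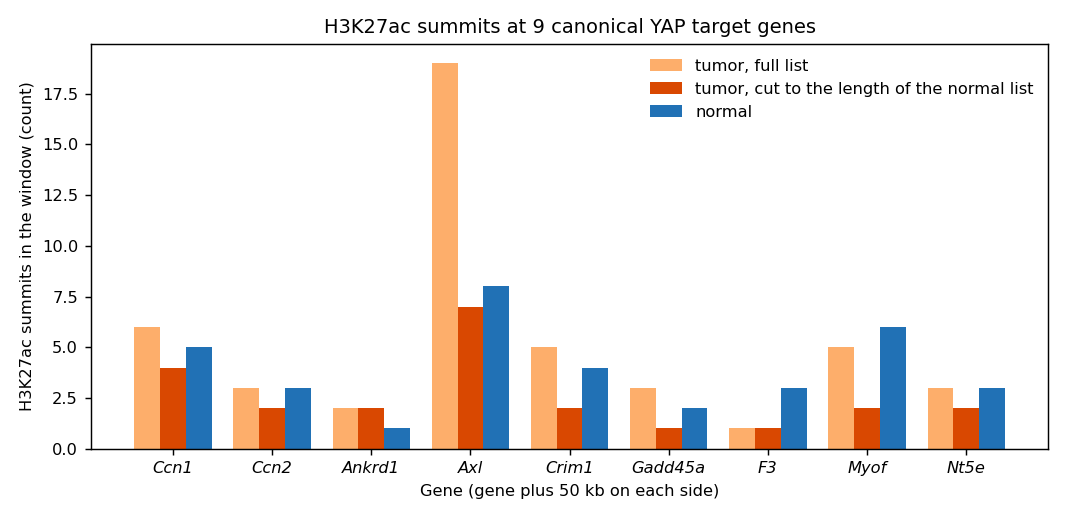
H3K27ac summits in the window of each gene (count): tumor full list, tumor list cut to the length of the normal list, and normal. F3 and Myof stay below normal with either tumor list, and Axl is at 19, 7 and 8.

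Most normal H3K27ac summits at these genes had a tumor summit within 1 kb. It was 26 of 35 (74.3%, Wilson 95% interval 57.9 to 85.8%), against 79.8% of all normal summits and 81.7% of those within 50 kb of a protein-coding gene. In the other direction, 25 of 47 tumor summits had a normal summit within 1 kb (53.2%, 39.2 to 66.7%), against 24.7% of all tumor summits and 28.6% of those within 50 kb of a protein-coding gene. Of the 22 tumor summits without one, 12 were in the Axl window, among them those 53 bp from an end of Cyp2s1 and within Axl itself, 8546 and 11378 bp from its nearer end. That window held 19 of the 47 tumor summits. The intervals treat summits as independent, which summits of 1 window are not, so they test no difference.

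The remaining 13 genes of the YAP/TAZ target signature of 22 genes were counted in the same way. At 12 of the 13 there was a YAP site of both tumor libraries, against 79.2% of all genes. At 7 it lay within 1 kb of an end, against 46.5% of all genes. The median was 3.0 per gene, equal to that of all genes, and 1.92 per 100 kb, against 2.17 over all genes. The windows of the 13 held 77 and 106 summits in tumor 1 and tumor 2, against 1 and 1 in normal 1 (Nuak2) and normal 2 (Asap1). The best-ranked sites lay in the windows of Amotl2, whose angiomotin-like protein binds YAP (rank 1000, 8 sites), and Tgfb2, a ligand of the TGF-beta family (rank 1065, 2 sites). Next came Foxf2, a forkhead transcription factor (rank 2728, 3 sites), and Ccdc80 (rank 3367, 4 sites). These ranks are the poorer of the tumor 1 and tumor 2 ranks of each site. A site ranked as well was in the windows of 7.93%, 8.52%, 21.4% and 26.2% of all genes, in the same order. No site of both tumor libraries lay inside Tgfb2 or Foxf2, or within 1 kb of an end of Tgfb2, Foxf2 or Ccdc80. Amotl2 had 10 and 11 summits in tumor 1 and tumor 2, against 0 and 0 in normal 1 and normal 2. Fjx1, which encodes a secreted regulator of planar polarity in the fly, had 2 and 2, against 0 and 0, and no shared site. H3K27ac at equal length was fewer in tumor at 5 of the 13 (36.9% of all genes), more at 3 (25.6% of all genes) and equal at 5.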

How the data were processed

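YAP and H3K27ac ChIP-seq was made from mouse gastric corpus epithelium. Per the submitters' processing notes, Bowtie2 and MACS2 were used with the mouse build mm10 (GRCm38). Not given in the sources used here are tool versions, calling thresholds and any control library. Each library has 1 list of summits of 1 base, whose deposited score is the authors' −log10 of a p- or q-value (which is not stated) and served only to rank and filter summits within a list. Depth is unknown from such lists. Summits outside chromosomes 1 to 19, X and Y were left out, 31 to 180 per list.

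Summits were counted and matched in Python 3.11.15 (numpy 2.4.6; pandas 2.3.3; scipy version 1.17.1), with the code tested on simulated data; figures used matplotlib 3.10.9. Genes came from RefSeq (GRCm38.p6), matched by symbol, and start sequences were found for 8 of the 9 genes (not Ccn2). Windows reached 50 kb, sites of both libraries 200 bp, and H3K27ac was near within 1 kb. YAP counts were compared by an exact permutation test, and H3K27ac lists at equal length. The labels do not state whether replicate libraries are different animals. A p-value therefore measures the spread between libraries, possibly a technical one.

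The genes named are the 9, the other 13 of the signature as counts with values for the 4 with the best-ranked sites and any with none, the genes nearest to summits in the windows, and the markers. The members and lists were chosen with earlier results of these data known. Alternatives were other distances, windows, score minimums, list lengths, merged summits, left-out libraries, the replicate block and grouping by peak-name words.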

Additional observations from a re-analysis of the deposited data

How the results depend on the processing

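Of the 9 genes with a YAP site of both tumor libraries, 8 were left with a score of at least 10, 7 with a 10 kb window, 5 with the gene body alone, 1 with tumor lists cut to 1654 summits and 0 under the peak-name words. The other alternatives run for this count left 9. Every 0 under the words in this paragraph was fixed, since each word group holds 1 normal library without a summit at these genes. The 40 sites came to 15 with a 10 kb window, 9 with the gene body alone, 15 with a score of at least 10, 1 with cut tumor lists and 0 under the words; with 1 tumor library left out, the summits of the other gave 51 to 76. The 6 genes with a site within 1 kb of an end came to 0 under the words and to 5 to 8 under the others. The 9 genes with higher tumor counts came to 8 with a 10 kb window, 8 with a score of at least 10, 5 with the gene body alone, 1 with all YAP lists cut to 1654 and 0 under the words, where the log2 ratios were −0.21 at Nt5e and 0.06 to 0.50 at the other genes. The replicate numbers share only a number: the correlation across 21887 genes of the replicate 1 minus 2 difference in tumor with that in normal was 0.027. With the replicate block the count stayed at 9 genes (exact sign-flip p = 0.5, the smallest it allows).

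Genes with an H3K27ac ratio of at least 2 were 1 in place of 0 with a score of at least 10 and with full lists. Genes with a ratio of at most 1/2, 2 at equal length, were 4 with a 10 kb window, 1 with a 100 kb window, 0 with a score of at least 5, 1 with a score of at least 10, 1 with full lists and 8 with summits closer than 2 kb merged. The share of YAP sites near tumor H3K27ac was 66.7% with the gene body alone and 31.6 to 49.0% with 1 tumor library left out, and that near normal H3K27ac 39.5 to 52.9% with 1 left out. Under the words no site was left, so these shares have no value. The cause of these moves was not tested, apart from those that follow from shorter lists or smaller windows.

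Depth is unknown, so a window without a normal YAP summit says only that none was called. The tumor and normal groups of YAP libraries rest on labels that the peak names contradict for 2 libraries, and H3K27ac has 1 library per group.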
